A study of Mus musculus with 8 samples.

Results

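RNA polymerase I and the factors that assemble ribosomes were examined as 1 group of 52 listed genes in the livers of SIRT7 knockout (SIRT7 KO) and wild-type (WT) mice. A gene was read through every probe set whose annotation named that gene and no other, and its brightest probe set, the one with the highest mean over the 8 arrays, stood for it in summaries. By this rule 50 of the 52 genes were measured, through 87 probe sets, among 12393 genes and 22626 probe sets in all. Dkc1, the pseudouridine synthase of box H/ACA particles, and Nob1, the nuclease that finishes the small-subunit rRNA, had no such probe set and were not analysed here.

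The study used mice lacking SIRT7 as a model of fatty liver disease. Total RNA from the livers of 4 SIRT7 KO mice and 4 WT mice was hybridised to Affymetrix GeneChip mouse arrays, 1 array for each sample, and every level given here is a log2 expression value. The labels name no further allele and no treatment in either genotype, and no source used here limits the knockout to a cell type. Strain, age, litter and hybridisation batch are not given for these arrays, and p-values therefore cover only how far these livers differed from each other.

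RNA polymerase I transcribes the repeated rRNA genes in the nucleolus, where the transcript is cut, modified by small nucleolar RNA-protein particles (snoRNPs) and folded with ribosomal proteins into the small and large ribosomal subunits. This machinery sets how much protein a cell can make, and MYC, a transcription factor that binds the DNA letters CACGTG (an E-box), is known to drive many of its genes. SIRT7 is a deacetylase enriched in nucleoli and is known from cultured human cells to associate with RNA polymerase I.

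The sequence upstream of 5 members is printed because it holds the E-box letters or, for Emg1, because this was the 1 member whose change passed the test described below. All are RefSeq sequences of the mouse build GRCm38.p6, written 5′ to 3′ on the strand of the gene, and each ends at the base before the annotated start. Capitals mark CACGTG, which reads the same on both strands.
Emg1, chr6:124712187-124712288, minus strand: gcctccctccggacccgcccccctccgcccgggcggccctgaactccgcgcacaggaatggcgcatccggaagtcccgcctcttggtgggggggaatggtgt
Nop2, chr6:125131803-125131882, plus strand: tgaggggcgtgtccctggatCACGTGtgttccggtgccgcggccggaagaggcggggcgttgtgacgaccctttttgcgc
Rrn3, chr16:13780464-13780698, plus strand: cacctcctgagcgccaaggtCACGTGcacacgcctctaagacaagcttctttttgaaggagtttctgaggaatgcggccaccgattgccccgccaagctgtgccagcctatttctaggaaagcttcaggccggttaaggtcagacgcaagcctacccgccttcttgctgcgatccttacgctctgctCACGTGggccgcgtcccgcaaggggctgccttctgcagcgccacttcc
Utp18, chr11:93885767-93885806, minus strand: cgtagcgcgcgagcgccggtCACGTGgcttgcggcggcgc
Imp4, chr1:34439688-34439828, plus strand: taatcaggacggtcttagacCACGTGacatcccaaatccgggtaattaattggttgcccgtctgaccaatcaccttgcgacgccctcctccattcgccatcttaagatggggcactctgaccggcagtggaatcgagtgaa

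The letters CACGTG stood in the promoter window, 250 bases before to 50 bases after the annotated start, of 9 of the 45 measured members that had a RefSeq promoter (20%). Over all 27025 genes with a RefSeq promoter the share was 8.09%, and over the 9887 such genes measured on the array it was 10.8%. The letters lay before the start in Imp4, Nop2, Utp18 and Rrn3, and after it in Ltv1, Utp20, Pes1, Mybbp1a and Wdr43. Rrn3 held them at 2 places, beginning 215 and 48 bases before its start. The Emg1 stretch held none. It is the whole of the 102 bases between Emg1 (chr6:124704370-124712186, minus strand) and its neighbour Phb2 (chr6:124712289-124716945), which are transcribed away from each other, and 73.5% of its bases are G or C. A match of letters is a description of the DNA and says nothing of whether a factor was bound in these livers.

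Sirt7 itself, the targeted gene, averaged 4.64 ± 0.22 in SIRT7 KO livers and 8.85 ± 0.19 in WT livers (log2 level, SD, n = 4 each), so the arrays matched their labels. Markers of hepatocytes were the brightest on all arrays, with a log2 summed level over 6 measured markers of 17.4 on every SIRT7 KO array and 17.4 to 17.5 on the WT arrays. All 10 measured macrophage markers were nominally higher in SIRT7 KO livers, none past the test, with summed levels of 12.7 to 13.3 in SIRT7 KO livers and 12.3 to 13.4 in WT livers. All 5 neutrophil markers were nominally lower, none past the test, and their summed levels ranged from 7.49 to 12.4 in SIRT7 KO livers and from 7.65 to 13.3 in WT livers. Of the other cell type markers, Lyve1 (endothelial) and Acta2 (stellate cells) were called higher in SIRT7 KO livers, by 1.21 and 0.61 on the log2 scale, and Stab1 (endothelial) and Cd3g (T cells) were called lower, by -0.30 and -0.39. Negative differences were found for 6 of 8 endothelial, 1 of 8 stellate cell and 4 of 6 T and NK cell markers, so Lyve1 ran against most of its list. Cd3g was dim, with means of 4.38 in SIRT7 KO livers and 4.77 in WT livers. What these cell type differences contributed to the values of the ribosome biogenesis genes was not tested. In bulk liver, fewer cells of a type and less RNA for each cell cannot be told apart.

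Transcripts of this machinery differed little between the genotypes. Emg1, the methyltransferase that modifies a pseudouridine of the small-subunit rRNA, was lower in SIRT7 KO livers, and no other member passed the test at its brightest probe set. A dimmer probe set of Nip7, a pre-rRNA processing factor, passed it too. The test was limma's moderated test on the whole table, with a gene called changed at a Benjamini-Hochberg adjusted p under 0.15, the false discovery rate used in the study. Of the 50 members, each read at its brightest probe set, 1 was called lower and 0 were called higher, against 2.48% of all genes called lower and 2.17% called higher, so that the members' share called was no larger than that of all genes. Among genes brighter than the median probe set, to which 47 of the members belonged, 4.03% were called lower and 2.76% higher. At an unadjusted p under 0.05, 8 members were lower and 0 were higher, where the shares were 8.72% and 6.91% of all genes and 13.4% and 7.74% of the brighter genes. All 4 SIRT7 KO arrays lay below all 4 WT arrays for 5 members (Polr1a, Fbl, Emg1, Wdr43 and Wdr74) and above them for 0, against 5.70% and 4.10% of all genes and 9.11% and 4.78% of the brighter genes.

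Negative differences were the more common ones among the members. The log2 difference, taken as SIRT7 KO minus WT, was negative for 40 of the 50 members (80%), for 50.7% of all genes and for 57.8% of genes brighter than the median probe set. Its median over the members was -0.080, within a range of -0.30 to 0.23, and over all genes it was -0.0031. Among the brighter genes the median was -0.032. The median absolute difference was 0.090 for the members, against 0.096 for all genes and 0.12 for the brighter genes, and 27 members lay within 0.1 of no difference. At their brightest probe sets no member differed by more than 1.23-fold. Single genes varied by about as much within a genotype, the median SD over the members being 0.11 in SIRT7 KO livers and 0.13 in WT livers.

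**Figure D1:**
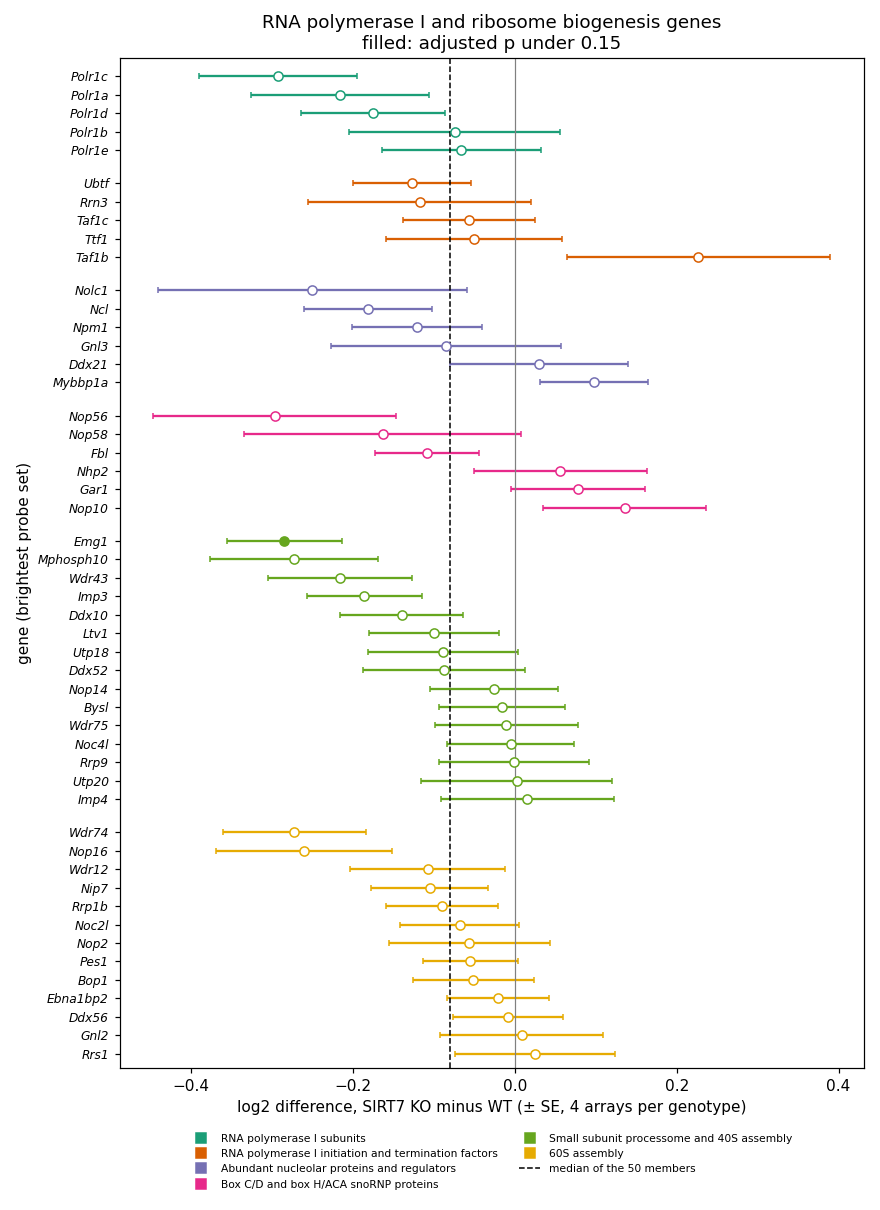
Log2 difference between SIRT7 KO and WT livers (x axis, SIRT7 KO minus WT, with its standard error from limma, 4 arrays per genotype) for the 50 measured members (y axis), coloured by role and sorted within it. Most points lie left of 0, 40 of 50, around a median of -0.080 (dashed line), and 1 point is filled (adjusted p under 0.15), that of Emg1.

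Probe sets that did not stand for a gene were mostly negative too. Of the 87 probe sets of the members 70 had a negative difference, and of the 37 that were not the brightest of their gene 30 did. The share over all probe sets is not given here, and over all genes at their brightest probe sets it was 50.7%. Among the 30 members with more than 1 probe set, all probe sets had the same sign in 22 and signs differed in 8. Probe sets of a gene share its transcripts, so they are not independent measurements.

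The size of this shift differed by array. Each member's level was taken as its deviation from its own mean over the 8 arrays, and these deviations were averaged over the members of an array. The averages were -0.044, -0.0050, -0.12 and -0.0021 for SIRT7 KO arrays 1 to 4, and -0.044, -0.014, 0.073 and 0.15 for WT arrays 1 to 4. SIRT7 KO array 3 was thus the lowest and WT array 4 the highest, while the remaining SIRT7 KO arrays and WT arrays 1 and 2 lay in 1 range. WT array 4 held the highest value of 25 of the 50 members (19.3% of all genes), and SIRT7 KO array 3 held the lowest value of 23 (12.6% of all genes). Without WT array 4 the median difference was -0.027 and 32 of 50 members were negative, when 49.7% of all genes were negative. Without SIRT7 KO array 3 the median was -0.053 and 36 members were negative, and with arrays weighted by their quality the median was -0.046 and 35 were negative. A measure of RNA quality moved with genotype. The log2 signal of the Gapdh control at its 3′ end minus that at its 5′ end was -0.016, 0.14, 0.15 and 0.16 on the SIRT7 KO arrays, against 0.24, 0.20, 0.29 and 0.16 on the WT arrays. Every SIRT7 KO array was below every WT array, the nearest being equal at 2 decimals, while the same measure for the actin control overlapped (1.29 to 1.63 in SIRT7 KO livers and 1.58 to 1.64 in WT livers). WT array 4 also had the lowest median correlation with the other arrays of its genotype (0.990, against 0.992 to 0.994 for the others). Their part in the members' differences was not tested.

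**Figure D2:**
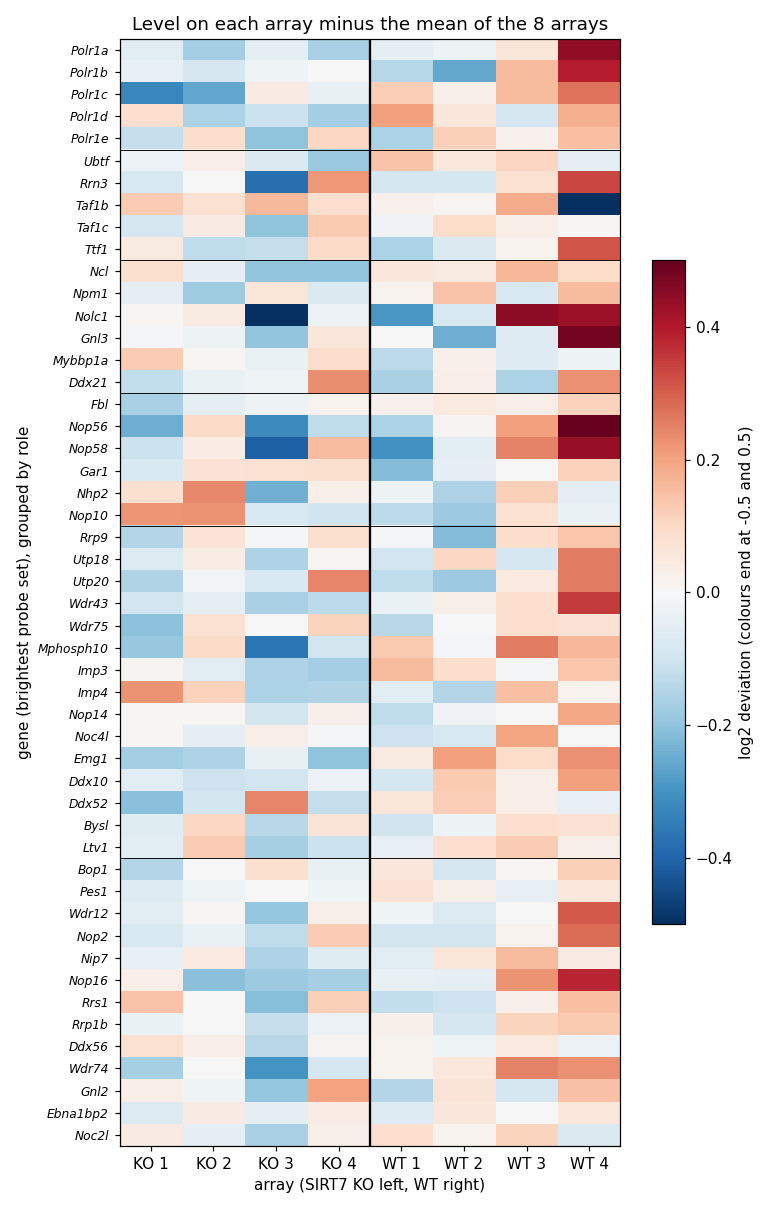
Level of each of the 50 measured members (rows, grouped by role) on each array (columns, SIRT7 KO on the left, WT on the right) as the log2 deviation from its mean over the 8 arrays, blue for lower and red for higher. SIRT7 KO array 3 is blue for many genes (the lowest array for 23 of 50) and WT array 4 is red for many (the highest for 25 of 50).

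The 5 subunits of RNA polymerase I among the members all had negative differences, with a median of -0.18 and a range of -0.29 to -0.066. None of these 5 passed the test. Other genes of the enzyme were read from a further list below, where Znrd1 was called lower and Polr2e differed by 0.16 without a call. Polr1a, the largest catalytic subunit, read 6.76, 6.64, 6.76 and 6.65 in SIRT7 KO livers, against 6.76, 6.78, 6.87 and 7.25 in WT livers. The genotypes did not overlap, but the gap between the highest SIRT7 KO value and the lowest WT value was too small to show at 2 decimals, and WT array 4 stood highest. The difference of Polr1a was -0.22 ± 0.11 (log2, SE, adjusted p = 0.409), and -0.10 without WT array 4. Its dimmer probe sets overlapped and differed by -0.097 and -0.068. Polr1b, the other large catalytic subunit, was the dimmest member, at 5.05, 5.01, 5.07 and 5.09 in SIRT7 KO livers, against 4.95, 4.83, 5.25 and 5.48 in WT livers. Its SIRT7 KO values lay inside the WT range, the difference was -0.075 ± 0.13 (adjusted p = 0.850), and it lay between -0.17 and 0.044 with 1 array left out, positive without WT array 4.

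Polr1c and Polr1d, the subunits that RNA polymerase I shares with RNA polymerase III, form a pair that starts the assembly of the enzyme. Polr1c read 8.46, 8.53, 8.83 and 8.75 in SIRT7 KO livers, against 8.91, 8.82, 8.95 and 9.06 in WT livers. SIRT7 KO arrays 1, 2 and 4 lay below every WT array and array 3 just above the lowest of them, giving a difference of -0.29 ± 0.098 (adjusted p = 0.205). Its other probe set read 8.29, 8.01, 8.25 and 8.06 in SIRT7 KO livers, against 8.44, 8.50, 8.32 and 8.65 in WT livers, without overlap, and differed by -0.33 ± 0.095 (adjusted p = 0.153). Both missed the threshold, and the gene passed it when the probe sets of each gene were averaged (adjusted p = 0.104) or when dim probe sets were left out of the table (adjusted p = 0.144).

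Polr1d read 10.49, 10.25, 10.30 and 10.24 in SIRT7 KO livers, against 10.61, 10.47, 10.32 and 10.59 in WT livers. SIRT7 KO array 1 lay among the WT values, and the difference was -0.18 ± 0.089 (adjusted p = 0.408), where the other probe set of the gene differed by 0.0046. Polr1e, which acts in initiation with a partner subunit, read 6.42, 6.63, 6.34 and 6.64 in SIRT7 KO livers, against 6.38, 6.66, 6.56 and 6.69 in WT livers. These overlapped, with a difference of -0.066 ± 0.098 (adjusted p = 0.817) that lay between -0.13 and -0.011 with 1 array left out.

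The 5 members that start or end transcription by RNA polymerase I had no called change, 4 negative differences and a median of -0.057. Ubtf, the factor that keeps active rRNA genes open, read 8.59, 8.65, 8.55 and 8.43 in SIRT7 KO livers, against 8.76, 8.67, 8.73 and 8.57 in WT livers. Its groups overlapped, and the difference was -0.13 ± 0.073 (adjusted p = 0.475), with -0.32 ± 0.11 (adjusted p = 0.219) at its dimmer probe set. Rrn3, which carries the polymerase to the promoter and whose upstream sequence holds 2 E-boxes, read 6.71, 6.80, 6.42 and 7.01 in SIRT7 KO livers, against 6.70, 6.70, 6.87 and 7.13 in WT livers. The spread within each genotype was wider than the difference of -0.12 ± 0.14 (adjusted p = 0.758), which lay between -0.21 and -0.012 with 1 array left out, the extremes coming from SIRT7 KO arrays 4 and 3.

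Taf1b and Taf1c are subunits of SL1, the complex that binds the rRNA gene promoter. Taf1b had the largest positive difference of the group, 0.23 ± 0.16 (adjusted p = 0.580). It read 6.31, 6.26, 6.35 and 6.27 in SIRT7 KO livers, against 6.21, 6.20, 6.37 and 5.51 in WT livers. WT array 4 alone was far below the rest, and without it the difference was 0.041. Taf1c read 6.23, 6.35, 6.11 and 6.44 in SIRT7 KO livers, against 6.29, 6.41, 6.35 and 6.32 in WT livers, with a difference of -0.057 ± 0.081 (adjusted p = 0.811) that lay between -0.11 and 0.00021 with 1 array left out. The WT values lay inside the SIRT7 KO range.

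Ttf1, which binds the terminators of the rRNA genes, read 7.14, 6.97, 6.98 and 7.19 in SIRT7 KO livers, against 6.94, 7.02, 7.11 and 7.41 in WT livers. The SIRT7 KO values fell within the WT range, the difference was -0.050 ± 0.11 (adjusted p = 0.879), and it lay between -0.11 and 0.046 with 1 array left out, positive without WT array 4.

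**Figure D3:**
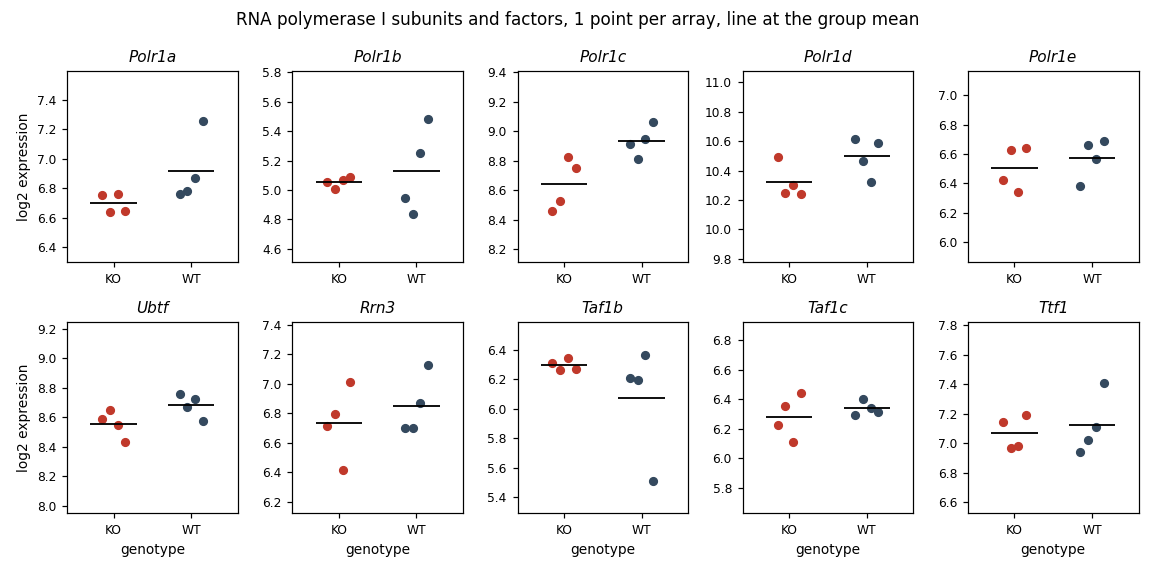
Log2 expression (y axis, a scale for each gene) of the 10 members that are RNA polymerase I subunits or factors, with 1 point for each array, SIRT7 KO left and WT right, and a line at the mean of each genotype. The genotypes do not overlap for Polr1a only, and WT array 4 stands apart for Polr1a (7.25) and Taf1b (5.51).

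Abundant nucleolar proteins gave no called change, with 4 of 6 differences negative and a median of -0.10. Ncl (nucleolin), which binds pre-rRNA, read 10.78, 10.65, 10.50 and 10.50 in SIRT7 KO livers, against 10.76, 10.75, 10.87 and 10.79 in WT livers. SIRT7 KO arrays 2, 3 and 4 were below every WT array and array 1 lay among them, for a difference of -0.18 ± 0.079 (adjusted p = 0.326). All 4 probe sets of Ncl had a negative difference. Npm1 (nucleophosmin), a nucleolar chaperone, read 11.56, 11.43, 11.67 and 11.54 in SIRT7 KO livers, against 11.63, 11.75, 11.54 and 11.77 in WT livers. The groups overlapped, and the difference was -0.12 ± 0.080 (adjusted p = 0.545).

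Mybbp1a, known as a repressor of rRNA gene transcription, was nominally higher. It read 9.23, 9.11, 9.07 and 9.19 in SIRT7 KO livers, against 8.97, 9.12, 9.04 and 9.07 in WT livers, a difference of 0.098 ± 0.067 (adjusted p = 0.559). Its dimmer probe set differed by -0.11 ± 0.087 (adjusted p = 0.636), so the gene has no settled direction here. The remaining members of this role, Nolc1, Gnl3 and Ddx21, differed by -0.25, -0.085 and 0.030, none past the test.

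Proteins of the snoRNPs were evenly split, with 3 of 6 measured members negative and a median of -0.026. The box C/D particles guide methylation of rRNA, and the 3 listed proteins of these particles, Fbl, Nop56 and Nop58, were the negative ones. Fbl (fibrillarin), the methyltransferase, read 9.65, 9.76, 9.79 and 9.83 in SIRT7 KO livers, against 9.83, 9.86, 9.84 and 9.92 in WT livers. All SIRT7 KO values were below all WT values, by a margin under 0.01 between the nearest, and the difference was -0.11 ± 0.064 (adjusted p = 0.491). Its other probe set differed by -0.014 ± 0.074 and overlapped. Nop56, a core protein of the same particles, had the largest negative difference of the group, -0.30 ± 0.15 (adjusted p = 0.405). It read 7.99, 8.33, 7.92 and 8.11 in SIRT7 KO livers, against 8.08, 8.25, 8.44 and 8.77 in WT livers. The groups overlapped, and without WT array 4 the difference was -0.17.

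The 3 measured proteins of the box H/ACA particles, which guide the conversion of uridine to pseudouridine, had positive differences. Nop10 was the brightest member and read 12.24, 12.24, 11.94 and 11.92 in SIRT7 KO livers, against 11.89, 11.84, 12.09 and 11.99 in WT livers. Only SIRT7 KO arrays 1 and 2 exceeded the WT range, and the difference was 0.14 ± 0.10 (adjusted p = 0.594), or 0.084 without the first of these arrays and 0.083 without the other. Gar1 and Nhp2 differed by 0.078 and 0.056. No test of box C/D against box H/ACA proteins was made.

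Small-subunit assembly held the called gene. Of its 15 measured members 13 had negative differences, with a median of -0.088 and a range of -0.28 to 0.015. Of the 15, 1 (6.67%) was called lower and 4 (26.7%) were lower at an unadjusted p under 0.05. Over all genes these shares were 2.48% and 8.72%, and among genes brighter than the median probe set 4.03% and 13.4%. Emg1 read 10.59, 10.61, 10.73 and 10.56 in SIRT7 KO livers, against 10.81, 10.97, 10.86 and 10.99 in WT livers. Every SIRT7 KO array was below every WT array, and the difference was -0.28 ± 0.070 (adjusted p = 0.107), or 0.821-fold. With 1 array left out the difference stayed between -0.32 and -0.26. The adjusted p was 0.121 without SIRT7 KO array 3 and 0.148 without WT array 3, and it was above 0.15, so that the call was lost, when any other single array was left out, reaching 0.244 without SIRT7 KO array 4. Phb2, whose start lies across the shared stretch printed above, differed by -0.12 ± 0.11 (adjusted p = 0.704), and was named after its value was seen.

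The other 3 members of this role at an unadjusted p under 0.05 belong to the complex that cuts the pre-rRNA around the U3 snoRNA. Wdr43 read 7.76, 7.81, 7.69 and 7.72 in SIRT7 KO livers, against 7.82, 7.88, 7.94 and 8.20 in WT livers. The groups did not overlap, WT array 4 was the highest, and the difference was -0.22 ± 0.089 (adjusted p = 0.298), or -0.14 without that array. The dimmer probe set of Wdr43 overlapped and differed by -0.14 ± 0.12. Mphosph10, a protein of the U3 snoRNP, read 8.28, 8.57, 8.11 and 8.38 in SIRT7 KO livers, against 8.60, 8.47, 8.73 and 8.64 in WT livers. SIRT7 KO array 2 lay within the WT range, and the difference was -0.27 ± 0.10 (adjusted p = 0.259). Imp3, its partner in that particle, read 10.16, 10.09, 9.99 and 9.97 in SIRT7 KO livers, against 10.30, 10.23, 10.13 and 10.28 in WT livers. It was low on most SIRT7 KO arrays but overlapped at array 1, with a difference of -0.19 ± 0.071 (adjusted p = 0.263).

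The remaining 11 measured small-subunit members differed by -0.14 to 0.015. Ddx10, an RNA helicase, was at the lower end and Imp4, the third protein of the Imp3 and Mphosph10 complex, at the upper end. The 5 of the role that carry the E-box letters in their promoter window, Wdr43, Utp18, Ltv1, Utp20 and Imp4, differed by -0.22, -0.089, -0.10, 0.0023 and 0.015.

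Large-subunit assembly gave no called change at the brightest probe sets, with 11 of 13 differences negative and a median of -0.056. Wdr74, which acts with a chaperone-like ATPase on the large-subunit precursor, read 7.97, 8.14, 7.84 and 8.06 in SIRT7 KO livers, against 8.15, 8.19, 8.39 and 8.37 in WT livers. The groups did not overlap, and the difference was -0.27 ± 0.088 (adjusted p = 0.192). Nop16, a nucleolar large-subunit factor, read 8.45, 8.21, 8.23 and 8.25 in SIRT7 KO livers, against 8.38, 8.37, 8.64 and 8.80 in WT livers. SIRT7 KO array 1 lay inside the WT range, and the difference was -0.26 ± 0.11 (adjusted p = 0.306). The dimmer probe set of Nop16 differed by 0.026 ± 0.11, with the other sign.

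Nip7 (chr8:107056877-107060931) was read differently by its 2 probe sets. The brighter one read 8.66, 8.75, 8.55 and 8.64 in SIRT7 KO livers, against 8.65, 8.77, 8.86 and 8.74 in WT livers. It differed by -0.11 ± 0.072 (adjusted p = 0.563), or -0.069 without WT array 3. The dimmer one read 5.89, 5.86, 5.92 and 5.96 in SIRT7 KO livers, against 6.17, 6.21, 6.14 and 6.53 in WT livers. It did not overlap and was called lower, by -0.36 ± 0.092 (adjusted p = 0.117), where 2.39% of all probe sets were called lower and 1.92% higher. That call held without WT array 3 (adjusted p = 0.131) or WT array 4 (adjusted p = 0.112) and was lost without any other single array. The remaining 10 large-subunit members differed by -0.11 to 0.025, and included Pes1, Bop1 and Wdr12, which work as 1 complex and differed by -0.055, -0.051 and -0.11.

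**Figure D4:**
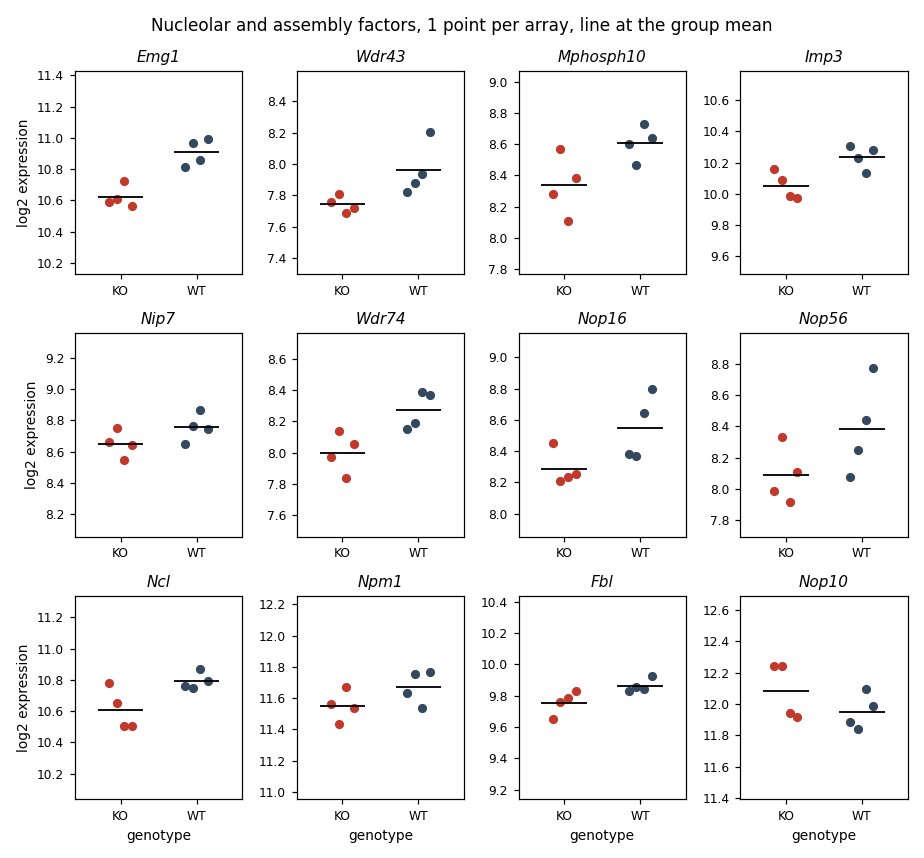
Log2 expression (y axis, a scale for each gene) of 12 nucleolar and assembly factors at their brightest probe sets, with 1 point for each array, SIRT7 KO left and WT right, and a line at the mean of each genotype. SIRT7 KO points lie wholly below WT points for Emg1, Wdr43, Wdr74 and Fbl, and Nop10 runs the other way with overlap.

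The members were also split by the E-box letters. The 9 members that carry CACGTG had a median difference of -0.056, with 6 negative and 0 called, and the 36 members with a promoter that lacks it had a median of -0.086, with 31 negative and 1 called. Myc read 6.93, 6.98, 8.05 and 8.73 in SIRT7 KO livers, against 6.55, 6.25, 6.51 and 8.50 in WT livers. SIRT7 KO arrays 3 and 4 and WT array 4 were high and the other 5 arrays low, so the genotypes overlapped. The difference of Myc was 0.72 ± 0.55 (adjusted p = 0.605), and it was 0.36 without SIRT7 KO array 4 (adjusted p = 0.837) and 1.23 without WT array 4 (adjusted p = 0.206). Of 12 measured genes of the MYC family and its partners 6 were negative, against 50.7% of all genes, with a median of -0.015. Of the 12, 0 were called higher and 1 lower, where 2.17% and 2.48% of all genes were. The called gene was Mxi1, a partner of MAX that represses MYC targets. It read 8.39, 8.49, 8.35 and 8.33 in SIRT7 KO livers, against 8.67, 8.62, 8.56 and 8.83 in WT livers, lower by -0.28 ± 0.076 (adjusted p = 0.131) without overlap, and stayed called in 1 of the 8 fits with an array left out, that without WT array 3.

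The rest of the pathway was read from further gene lists, which do not include the members. Beside each list stand the shares over all genes, 50.7% negative, 2.48% called lower and 2.17% called higher. Among genes brighter than the median probe set they were 57.8%, 4.03% and 2.76%. Of 12 other genes of RNA polymerase I and its chromatin, 10 were negative with a median of -0.13, 1 was called lower and 0 higher. The called gene was Znrd1, the small subunit of RNA polymerase I that helps to cut back stalled transcripts. It read 8.27, 8.34, 8.15 and 8.17 in SIRT7 KO livers, against 8.38, 8.48, 8.53 and 8.62 in WT livers, without overlap and with a difference of -0.27 ± 0.077 (adjusted p = 0.146). This call was lost when any 1 array was left out (adjusted p = 0.179 to 0.299).

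Among 74 other ribosome assembly genes 57 were negative with a median of -0.088, 0 were called lower and 1 higher. Nol6, a protein of the small-subunit processing complex, was the called gene and ran against the list. It read 6.95, 7.08, 7.10 and 6.94 in SIRT7 KO livers, against 6.80, 6.68, 6.75 and 6.82 in WT livers, higher on every SIRT7 KO array by 0.26 ± 0.068 (adjusted p = 0.130), and it stayed called in 1 of the 8 fits with an array left out, that without WT array 4. Nuclear exosome and RNase MRP genes, which trim and cut pre-rRNA, gave 13 of 20 negative, a median of -0.079 and 0 called. The smallest p-values among them belonged to Pop5 of RNase MRP, with a difference of -0.28 ± 0.091 (adjusted p = 0.198), to the exosome subunit Exosc9, with -0.32 ± 0.12 (adjusted p = 0.256), and to Rpp14, with -0.15 ± 0.074 (adjusted p = 0.408).

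A list of 8 genes was read for the nucleolar stress response, in which unassembled ribosomal proteins such as Rpl11 hold back Mdm2. Of the 6 measured, 5 were nominally higher and Rpl11 was not. The median over the 6 was 0.069, and of all 12393 genes 6110 were nominally higher. The called gene was Cdkn1a, an inhibitor of cell cycle kinases. It read 7.03, 7.12, 7.70 and 6.73 in SIRT7 KO livers, against 5.94, 6.61, 6.43 and 6.53 in WT livers, higher on every SIRT7 KO array by 0.77 ± 0.21 (adjusted p = 0.133). The call was lost when any 1 array was left out (adjusted p = 0.151 to 0.269). The others, Cdkn2a, Nol3, Pml, Mdm2 and Rpl11, differed by 0.10, 0.071, 0.067, 0.027 and -0.067, none past the test. Cdkn2a was dim, with means of 3.94 in SIRT7 KO livers and 3.84 in WT livers.

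Proliferation genes went with a positive sign in 17 of 20 cases, where 6110 of all 12393 genes had one. Their median was 0.21 and 0 were called. Their arrays were more variable than those of the members, with a median SD of 0.28 in SIRT7 KO livers and 0.42 in WT livers. The smallest p-values were those of Bub1b, a mitotic checkpoint kinase (0.21 ± 0.089, adjusted p = 0.304), Cdk1, the mitotic kinase (0.60 ± 0.34, adjusted p = 0.463), and Pcna, the replication clamp (-0.12 ± 0.085, adjusted p = 0.580).

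**Figure D5:**
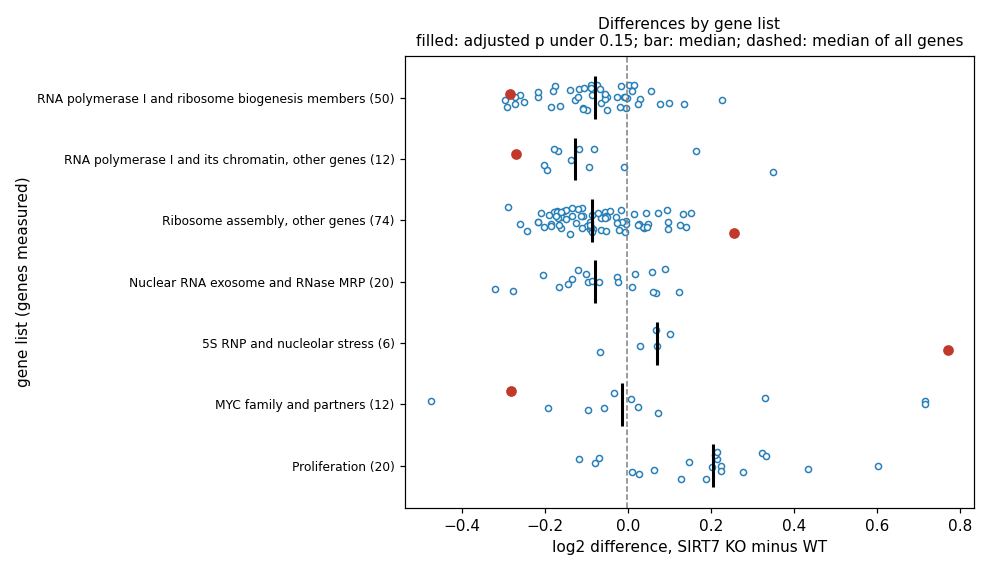
Log2 difference, SIRT7 KO minus WT (x axis), of every measured gene in the member group and in 6 further lists (y axis, number of genes measured in brackets), with a bar at the median of the list and a dashed line at the median of all genes. Filled points passed the test, 1 of 50 members (Emg1) and Znrd1, Nol6, Cdkn1a and Mxi1 in the other lists, and the member median lies at -0.080.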

How the data were processed

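Liver RNA of 4 SIRT7 KO and 4 WT mice was measured on 1 array each. The authors deposited log2 expression values, 1 for each probe set and array, after background correction, normalization between arrays and summary of the probes. RMA is named in the study's methods but GCRMA in the submitters' processing notes, and it is not known which was applied or in what version. The methods treat background differently, which mainly affects dim probe sets.

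Of 22690 probe sets 64 controls were left out, and 22626 were tested with limma 3.58.1 in R 4.3.3 (lmFit, eBayes, genotype only, two-sided, Benjamini-Hochberg over all of them). A gene was named where the platform annotation gave a probe set exactly 1 symbol (20380 probe sets), and 691 with several symbols and 1555 with none were not named. Genes were called at an adjusted p under 0.15. The fit was tested on simulated data. No counts underlie the values, so the number of arrays limits the precision.

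The members and gene lists were chosen with earlier results of these data known. Values on every array are given for members called at any probe set, the 8 next smallest p-values, the 3 largest differences each way, the RNA polymerase I subunits and factors, and Ncl, Npm1 and Fbl. In other lists, called genes or else the 3 smallest p-values were named, with Myc. Alternatives were a threshold of 0.05, trended and robust moderation, array weights, quantile normalization, median centring, a filter on dim probe sets, averaged or most variable probe sets, a replicate block, and leaving out each array. Whether the replicate numbers pair the arrays is not given. Deviations from the genotype mean correlated at 0.26, -0.25, -0.16 and 0.15 between same-numbered arrays. Between differently numbered arrays they correlated at -0.44 to 0.31. So few arrays cannot show whether same-numbered ones shared a litter or batch.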

Additional observations from a re-analysis of the deposited data

Results flagged for a closer look

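Each of the 50 measured members was checked in each genotype for an array far from the other 3, 100 groups in all, where the gap to the nearest array was compared with the range of the group (Dixon's test at its critical value for 4 arrays). In 2 groups an array stood apart, and chance alone flags about 1 group in 20. Nolc1, a nucleolar phosphoprotein that chaperones snoRNPs, read 7.31 on SIRT7 KO array 3, against 7.81, 7.85 and 7.89 on the other SIRT7 KO arrays. Gar1, a box H/ACA protein, read 7.92 on SIRT7 KO array 1, against 8.07, 8.08 and 8.08 on the others.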

How the results depend on the processing

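The count of members called, 1 in the fit reported, was 0 at an adjusted p under 0.05, 0 with the replicate block (Emg1 adjusted p = 0.209), 3 with dim probe sets left out (Emg1, Wdr74 and Polr1c), 3 with probe sets averaged (Emg1, Nip7 and Polr1c), 2 with the most variable probe set (Emg1 and Nip7) and 0 to 1 with 1 array left out. It was 1 with the other settings run. With the block, which pairs arrays by number alone, the calls of Znrd1, Nol6, Cdkn1a, Mxi1 and the dimmer Nip7 probe set were lost too. Of these, Znrd1 was also lost with trended moderation, array weights, quantile normalization and median centring, Nol6 with trended moderation, median centring and averaged probe sets, and Mxi1 with quantile normalization, median centring and averaged or most variable probe sets. Over all 12393 genes 576 were called in the fit reported, 368 with the block and 132 to 525 with 1 array left out. The count was 658 with probe sets averaged, 655 with the most variable probe set, and 858 of 7050 genes with dim probe sets left out.

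The median difference of the members was negative under every setting run, between -0.10 and -0.027 with 1 array left out (32 to 44 of 50 negative), and 33 of 50 were negative after quantile normalization. Among the 23 members with values on every array, signs turned for Ttf1 with array weights (0.00018), and for Mybbp1a with probe sets averaged (-0.0039) or the most variable one (-0.11). With 1 array left out they turned for Ttf1 (-0.11 to 0.046), Taf1c (-0.11 to 0.00021) and Polr1b (-0.17 to 0.044). The cause was not tested. The alternative for linear values was not run, since the values are log2. Signal over background was not used, since the values carry no detection calls, and the standard errors of the members (0.059 to 0.19, median 0.091) were about as large as their median absolute difference of 0.090.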
